A study of Mus musculus with 13 samples.

Results

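The Notch pathway genes described here are 10 mouse genes chosen by symbol from the count table: the receptors Notch1, Notch2 and Notch3, the ligands Jag1, Jag2 and Dll1, and the target genes Hes1, Hes5, Hey1 and Hey2. They are 10 of the 48709 genes counted. Each has a row in every table, and 9 of them are among the 16328 genes that passed the filter on low counts. Hes5 is the one left out by it. RNA came from the enamel organ, the epithelium that lays down enamel, of lower incisors at postnatal day 11. The mutant mice (Het, n = 5) carried 1 mutant allele of the type II TGF-beta receptor, Tgfbr2-G357W/+, a model of Loeys-Dietz syndrome type II. They were compared with Tgfbr2-+/+ wild-type littermates (WT, n = 8), and the labels name no Cre or tissue-specific driver for the allele. Each library was taken as 1 mouse, and libraries held 20266079 to 26122340 counts in Het and 18852382 to 26508410 in WT.

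Notch receptors sit in the cell membrane and are switched on by ligands on a neighbouring cell. Ligand binding lets proteases free the receptor's intracellular part, which enters the nucleus and, with the DNA-binding protein RBPJ, turns on target genes such as the Hes and Hey repressors. In teeth, Notch1 is known as a gene of the stratum intermedium, the epithelial layer behind the ameloblasts, and Jag2 is known from the enamel epithelium that faces it. Notch3 is best known from pericytes and vascular smooth muscle, the mural cells of blood vessels.

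The dissected tissue held more than epithelium, which bears on genes that several cell types use. The 4 secretory ameloblast markers (Amelx, Ambn, Enam, Mmp20) summed to 193090 to 279354 CPM (counts scaled to library size) in Het and 145420 to 288082 in WT. Markers of mesenchyme (6 genes) summed to 4399 to 9802 CPM in Het and 5366 to 11796 in WT, those of endothelium (8 genes) to 86.7 to 119 and 90.8 to 128, and none of these genes was at 0 in all libraries. In bulk tissue, fewer cells of a type and less RNA per cell cannot be told apart. Column names carry a number before a hyphen (1, 4 or 5), called the prefix here. No source used here gives its meaning, and the 3 prefixes hold 1, 2 and 2 Het and 3, 3 and 2 WT libraries.

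The promoters of the target genes are where the intracellular receptor and RBPJ act, so those with an entry in the RefSeq table (build GRCm38.p6) are shown first. Of the 10 genes 8 have an entry, with 9 promoters in all, since Dll1 has 2. The others are Hes1 and Hey1. The 7 letters GTGGGAA, the core of the RBPJ motif, were searched on both strands. They occur in 2 of the 9 promoters, those of the targets Hes5 and Hey2, and in 6.38% of all 32851 promoters of that length. Both hold at least 1 match on each strand, which is so in 33 of all promoters (0.100%). The last 6 of these letters, TGGGAA, which every match of the longer motif contains, are in the same 2 of 9 and in 25.6% of all promoters. Motifs that Hes and Hey proteins bind were searched as well: CACNAG, the N box, is in 4 of the 9 and 42.5% of all promoters, and CACGNG, the class C E box, in 6 of the 9 and 27.5%. The 9 promoters are too few to set these shares apart, and no test was made. In Hes5 (chr4:154960673-154960972, plus strand) the matches start at -226 and -83, counted from the start site as 0, and in Hey2 (chr10:30842734-30843033, minus strand) at -207 and -4. Capitals mark the matches, and the sequences run 5′ to 3′ from 250 bases before the start to 50 after it. A match describes letters and does not show that RBPJ binds there.
Hes5: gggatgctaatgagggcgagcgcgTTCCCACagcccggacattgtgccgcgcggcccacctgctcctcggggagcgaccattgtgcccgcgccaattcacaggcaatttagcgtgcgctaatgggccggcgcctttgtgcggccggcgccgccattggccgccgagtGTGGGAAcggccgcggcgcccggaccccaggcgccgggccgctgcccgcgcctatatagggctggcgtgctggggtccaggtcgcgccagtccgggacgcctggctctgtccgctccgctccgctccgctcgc
Hey2: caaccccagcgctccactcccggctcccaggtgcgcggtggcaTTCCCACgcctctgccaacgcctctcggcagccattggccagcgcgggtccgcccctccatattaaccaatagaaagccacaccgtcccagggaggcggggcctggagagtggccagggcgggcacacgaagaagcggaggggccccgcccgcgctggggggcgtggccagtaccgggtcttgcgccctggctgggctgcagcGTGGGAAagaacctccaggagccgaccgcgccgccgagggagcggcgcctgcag

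Receptors and ligands differed widely in level, with 1 main receptor and 1 main ligand in both genotypes. Levels of different genes are compared as CPM per kb of annotated exon. Notch2 was the main receptor, with 15.1 ± 4.57 CPM per kb in Het and 24.1 ± 12.98 in WT (SD, n = 5 and n = 8). It made up 90.0% ± 2.46 of the summed level per kb of the 3 receptors in Het and 93.1% ± 2.10 in WT. Notch3 had 1.05 ± 0.444 CPM per kb in Het and 0.958 ± 0.323 in WT, and Notch1 had 0.629 ± 0.233 and 0.604 ± 0.155.

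Jag1 was the main ligand, with 12.8 ± 1.40 CPM per kb in Het and 15.5 ± 2.42 in WT. Of the summed level of the 3 ligands it made up 79.98% ± 2.66 in Het and 83.4% ± 2.40 in WT. Jag2 followed with 3.01 ± 0.663 CPM per kb in Het and 2.87 ± 0.580 in WT, and Dll1 with 0.224 ± 0.108 and 0.181 ± 0.0828. Dll1 rests on few reads, 9 to 38 in Het libraries and 8 to 32 in WT libraries.

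The targets lay below Notch2 and Jag1, while Hey1 lay above Notch3, Notch1 and Dll1. Hey1, the highest of the targets, had 2.36 ± 0.534 CPM per kb in Het and 2.39 ± 0.445 in WT. Hes1, a repressor that keeps progenitors from differentiating in many tissues, had 0.638 ± 0.176 in Het and 0.705 ± 0.191 in WT, and Hey2, best known from heart and vessels, had 0.481 ± 0.220 and 0.447 ± 0.132. Hes5, best known from neural progenitors, was at the limit of detection. The Het libraries held 0, 0, 2, 2 and 3 reads of it, and the WT libraries 0 at the lowest, 2.5 at the median and 6 at the highest. A level of 3 counts, which a count of 0 still allows, is 0.106 to 0.139 CPM in the Het libraries and 0.117 to 0.163 in WT, and this covers counting error only. No fold change is given for Hes5.

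**Figure D1:**
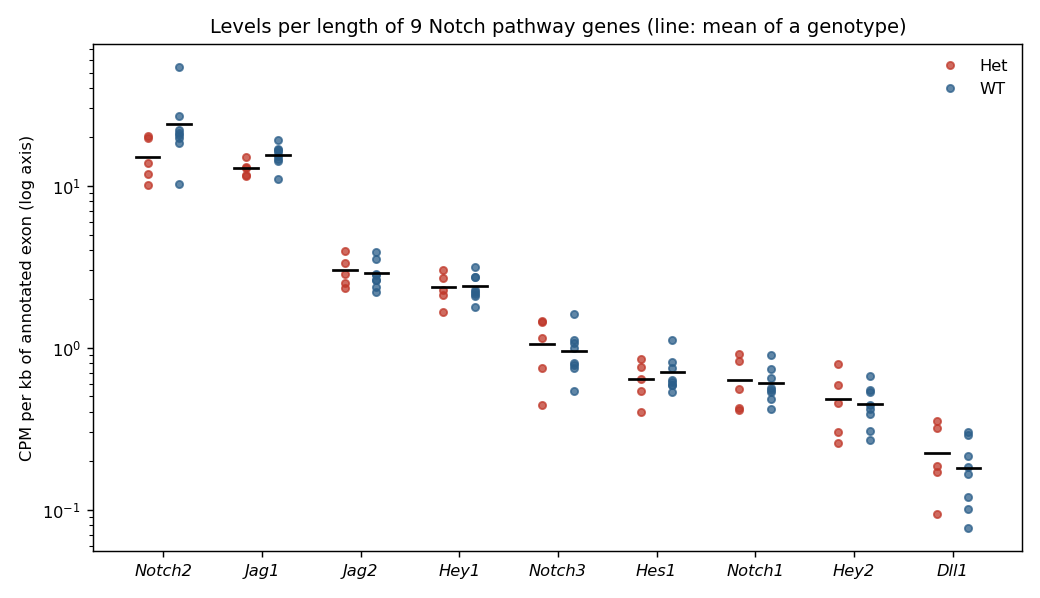
Level of each gene in CPM per kb of annotated exon (log axis), 1 point per library, Het left of WT, with a line at the mean of each genotype, genes ordered by mean over the 13 libraries. Notch2 and Jag1 stand above the rest, and Dll1 is the lowest of the 9 genes shown. Hes5, with libraries at 0, is not drawn.

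Over all 13 libraries the order was Notch2, Jag1, Jag2, Hey1, Notch3, Hes1, Notch1, Hey2, Dll1 and Hes5. The ranges of 2 neighbouring pairs did not overlap. Jag1 was 4.94 times as high as Jag2, and Hey1 2.39 times as high as Notch3, each in 13 of 13 libraries. Hey2 was above Dll1 in 13 of 13 libraries as well, with overlapping ranges. Hes1 and Notch1 could not be ordered, since Hes1 was the higher in 6 of 13 libraries. The remaining neighbours (Notch2 and Jag1, Jag2 and Hey1, Notch3 and Hes1, Notch1 and Hey2, Dll1 and Hes5) kept their order in 10 or 11 of 13 libraries, with overlapping ranges.

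The comparison of genotypes asks whether the receptor substitution goes with another level of Notch signalling genes in the enamel organ. No Notch receptor, ligand or target passed the test between Het and WT. Of the 9 genes tested, 0 were called by edgeR (quasi-likelihood F-test, p adjusted over all 16328 genes after Benjamini and Hochberg), where 0.0857% of all genes were (0.0429% higher and 0.0429% lower in Het), and DESeq2 also called 0 of the 9, where it called 0.453% of all genes. At an unadjusted p under 0.05 there were 2 of 9, Notch2 and Jag1, where 6.9% of all genes reached it. The Het and WT ranges overlapped for each of the 9 genes, and over all genes 0.49% had ranges apart.

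Notch2 had the largest difference of the 9. Its level was 127, 218, 211, 109 and 150 CPM in the Het libraries, and 110 at the lowest, 225 at the median and 583 at the highest in the WT libraries. All 5 Het values lie below the WT median, while the WT library with the lowest value, WT 5-1, lies with the lowest Het library. The mean was 7.30 ± 0.44 log2 CPM in Het and 7.88 ± 0.67 in WT (SD), and the edgeR log2 fold change was -0.67 ± 0.30 (standard error, SE; adjusted p = 0.706). The highest library, WT 4-3, moved this value by more than any other: without it the edgeR log2 fold change was -0.39 (adjusted p = 0.897). Within prefixes 1, 4 and 5 the difference of mean log2 CPM, Het minus WT, was -0.98, -0.46 and -0.26.

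Jag1, mutated in Alagille syndrome in humans, was 66.8, 87.4, 74.6, 68.4 and 76.5 CPM in the Het libraries, and 63.9 at the lowest, 91.1 at the median and 112 at the highest in the WT libraries. The 5 Het values lie below the WT median, as they did for Notch2, while the lowest library of all is WT 5-1. The edgeR log2 fold change was -0.27 ± 0.12 (SE, adjusted p = 0.685), and within prefixes 1, 4 and 5 the difference was -0.43, -0.33 and -0.0045. The values of Jag1 and Notch2 varied together over libraries (r = 0.868), so their differences are not separate observations.

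The other 7 genes tested had an unadjusted p above 0.05. Dll1, with the widest error of them, had an edgeR log2 fold change of 0.31 ± 0.38 (SE), Notch3 of 0.14 ± 0.26, Hey2 of 0.10 ± 0.28, Jag2 of 0.07 ± 0.15, Notch1 of 0.06 ± 0.21, Hey1 of -0.02 ± 0.16 and Hes1 of -0.14 ± 0.26, with edgeR adjusted p from 0.895 to 0.989. For Dll1 it was 0.09 without Het 1-2 and 0.15 without Het 4-5, and for Hes1 -0.0064 without Het 5-5 and -0.01 without WT 4-3. Of these 7, none kept its sign in all 3 prefixes. The spread was widest for Hey2, with differences of 0.04, 0.57 and -0.42 in prefixes 1, 4 and 5, and Notch1 had -0.30, 0.60 and -0.19. The level of Notch1 was 7.95, 13.1, 11.8, 5.87 and 6.07 CPM in the Het libraries, and 5.95 at the lowest, 7.90 at the median and 12.8 at the highest in the WT libraries. The Het libraries of prefix 4 are among the highest of all and those of prefix 5 among the lowest. The libraries are unstranded, and exons of 0610009E02Rik, a gene on the other strand with 184 to 373 counts a library, overlap those of Notch1 (138 to 335 counts) over 1068 bases. How many reads either gene drew from the other was not tested. A930024N18Rik, with 20 to 116 counts, overlaps Dll1 in the same way over 867 bases.

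**Figure D2:**
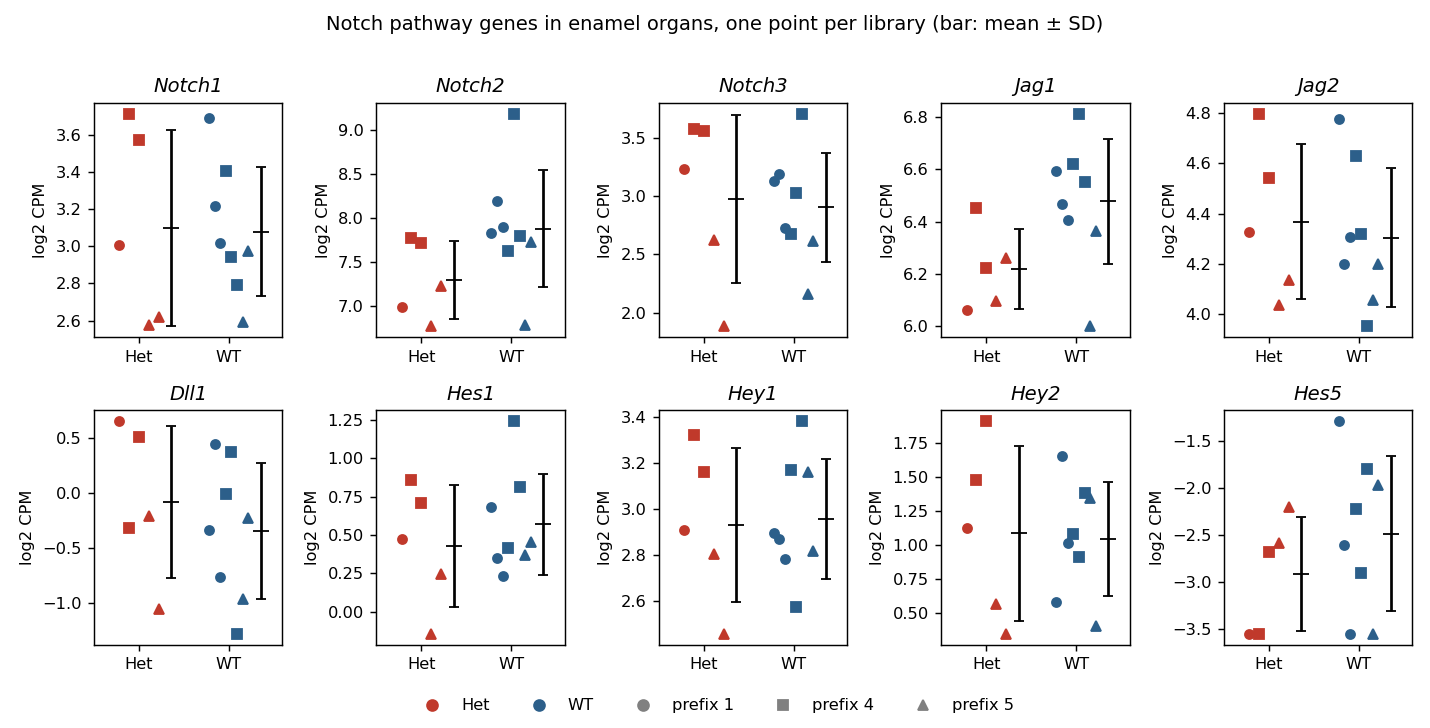
log2 CPM of each gene, 1 point per library, Het left of WT, marker shape by prefix, with mean ± SD beside the points. The genotypes overlap for every gene, Notch2 and Jag1 sit lower in Het without passing the test, and libraries of prefix 5 lie low for Notch3. For Hes5, libraries with 0 reads are drawn at the value the prior count gives them.

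**Figure D3:**
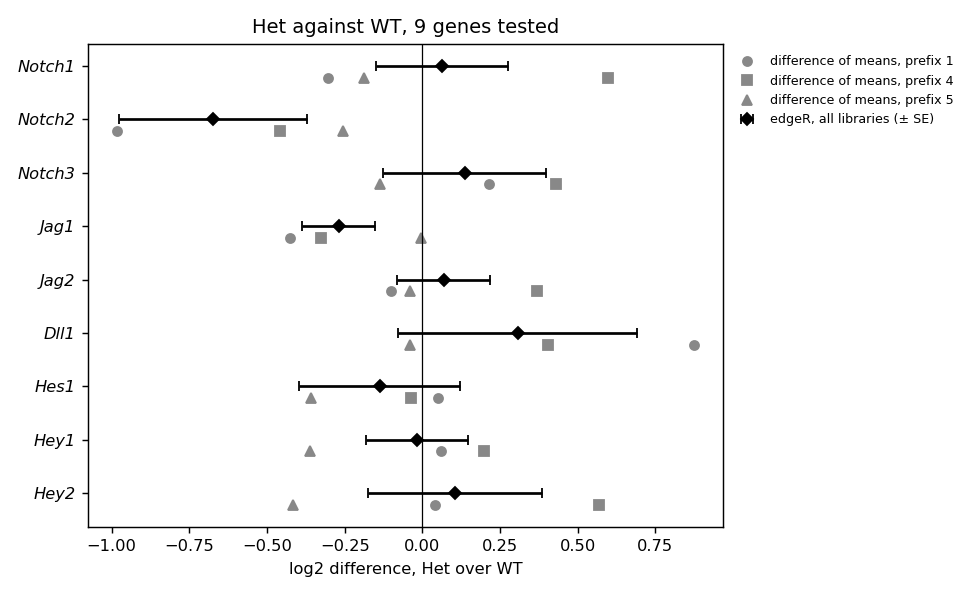
log2 difference of Het over WT for the 9 genes tested. Black diamonds with bars are edgeR log2 fold changes ± SE over all libraries, and grey markers below them are differences of mean log2 CPM within each prefix. For Notch2 and Jag1 all 3 prefixes lie left of 0, and for the other 7 genes the prefixes lie on both sides.

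The rest of the pathway did not pass the test either. Of 54 further Notch genes, 49 were tested and 0 were called with edgeR (2 at an unadjusted p under 0.05), and DESeq2 called 0 as well. Of them, 25 had a positive and 24 a negative log2 fold change, with a median of 0.0011, beside -0.0044 over all genes tested. Among receptors and ligands outside the main set (4 of 5 tested), Notch4, an endothelial receptor, had -0.32 ± 0.33 and Dlk1, a related membrane protein, -0.25 ± 0.47 (SE, edgeR adjusted p of 0.872 and 0.939). Among 19 genes that process receptors and ligands, Neurl1a, a ubiquitin ligase of ligands, had 0.60 ± 0.27 and Furin, the protease that cuts the receptor on its way to the membrane, -0.48 ± 0.27 (edgeR adjusted p of 0.703 and 0.762).

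Of 14 genes of the nuclear complex and its corepressors, Spen, a corepressor of RBPJ, had -0.28 ± 0.15 and Tle2, a Groucho-type corepressor, -0.23 ± 0.14 (SE, edgeR adjusted p of 0.761 and 0.778). Among inhibitors and feedback genes (10 of 11 tested), Fbxw7, the ubiquitin ligase subunit that marks the intracellular receptor for breakdown, had -0.40 ± 0.13 and the smallest p of the 49 (edgeR adjusted p = 0.404), and Dner, a further ligand, had 0.51 ± 0.35 (adjusted p = 0.805). Of the 5 further Hes and Hey genes 2 were tested, Heyl with 0.02 ± 0.17 and Hes6 with 0.00 ± 0.13 (edgeR adjusted p of 0.985 and 0.999).

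The levels of the Notch genes also differed between libraries of the same genotype. Which of them varied together is described next over all 13 libraries. How many of all genes tested varied as closely with each other or with cell type markers was not counted. Notch3 varied with mural cell markers. It was 9.29, 11.8, 11.7, 6.07 and 3.61 CPM in the Het libraries, and 4.40 at the lowest, 7.30 at the median and 12.99 at the highest in the WT libraries. Pearson's r between Notch3 and the mean log2 CPM of 7 pericyte and vascular smooth muscle markers was 0.956 and Spearman's rho 0.973 (permutation test with Benjamini-Hochberg adjustment over 45 relations, adjusted p = 0.000225 and 0.00045). The unadjusted p of both, 1e-05, is the smallest that the 100000 permutations can give. The list itself lay between 4.68 and 5.54 log2 CPM in Het and between 4.81 and 5.67 in WT, and its part in the level of Notch3 was not tested. Without the 2 libraries farthest from the median of the list, Het 5-6 and WT 5-1, r was 0.900. With values centred on genotype and prefix it was 0.872 (permutation adjusted p = 0.0063), and with 1 library left out it lay between 0.934 and 0.969, past the threshold in 13 of 13 fits.

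Among the 7 mural markers taken singly, r with Notch3 lay between 0.244 for Acta2, an actin of smooth muscle, and 0.956 for Pdgfrb, the receptor that recruits mural cells. Rgs5, used as a pericyte marker elsewhere, had an r of 0.485. Its level was 7140 to 10411 CPM in Het and 6561 to 14268 in WT, far above the 9.01 to 25.4 CPM of Pdgfrb in Het and the 12.9 to 32.6 in WT. Of 13897 tested genes (mean log2 CPM 0 or more), Pdgfrb was also the gene whose pattern over the 13 libraries was most like that of Notch3.

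Notch3 also varied with the 8 endothelial markers (r = 0.915, rho = 0.934, permutation adjusted p = 0.000225 and 0.00045, and r = 0.849 without Het 5-6 and WT 5-1). Centred on genotype and prefix, r was 0.800 (permutation adjusted p = 0.0193). Single endothelial markers ranged from -0.420 for Emcn to 0.842 for Cldn5. Mural and endothelial markers are in the same vessels, so the relations of Notch3 to the lists are not separate observations. The relation to mesenchyme markers (r = 0.749, rho = 0.813, permutation adjusted p = 0.0327 and 0.0109) rested on Het 5-6 and WT 4-4, without which r was 0.469. It was not past the threshold once centred (r = 0.687, permutation adjusted p = 0.0883). No relation of Notch3 to stratum intermedium (r = 0.189) or cervical loop markers (r = 0.134) passed the threshold.

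Notch1 and the ligand Jag2 varied together over the libraries. Jag2 was 19.98, 27.7, 23.2, 16.3 and 17.5 CPM in the Het libraries, and 15.4 at the lowest, 18.99 at the median and 27.3 at the highest in the WT libraries. Both genes were highest in Het 4-2 and WT 1-1. Between Notch1 and Jag2 r was 0.924 and rho 0.896 (permutation test with Benjamini-Hochberg adjustment over 36 pairs of the 9 genes, adjusted p = 0.00108 and 0.00432). Without the 2 libraries farthest from the median of Notch1 r was 0.855, with values centred on genotype and prefix 0.893 (permutation adjusted p = 0.00036), and with 1 library left out 0.902 to 0.951.

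Both genes varied with markers of the cervical loop, the growing end of the incisor that holds its epithelial stem cells. The list lay between 2.28 and 2.98 log2 CPM in Het and between 2.32 and 3.13 in WT, and its part in the levels of both genes was not tested. For Jag2 r was 0.779 and rho 0.846 (permutation adjusted p = 0.0312 and 0.0075), and for Notch1 r was 0.754 and rho 0.808 (0.0327 and 0.0109). Centred on genotype and prefix, r was 0.798 for Jag2 and 0.781 for Notch1 (permutation adjusted p = 0.0193 each), and without Het 5-5 and WT 4-4 it was 0.682 and 0.684. With 1 library left out, the relation passed the threshold in 10 of 13 fits for Jag2 and in 6 of 13 for Notch1. The list's members did not contribute alike. Gli1, a hedgehog target, had the highest single r (0.843 with Jag2 and 0.823 with Notch1), while Shh had 0.0744 and 0.0692. Igfbp5 had 0.539 and 0.689, and Sox2, Sfrp5 and Lrig1 lay between 0.247 and 0.372 with either gene. The stem cell gene Sox2 was detected at no more than 0.264 CPM in Het and 1.08 in WT. No relation to the 6 stratum intermedium markers passed the threshold by Pearson's r (r = 0.630 for Jag2 and 0.611 for Notch1, permutation adjusted p = 0.0986 and 0.109). For Jag2 it did by rho alone (0.742, permutation adjusted p = 0.0296). So did Hey2 with the mural and mesenchyme lists (rho = 0.736 and 0.764, permutation adjusted p = 0.0313 and 0.0261), where r was 0.626 and 0.691 (0.0986 and 0.0621).

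**Figure D4:**
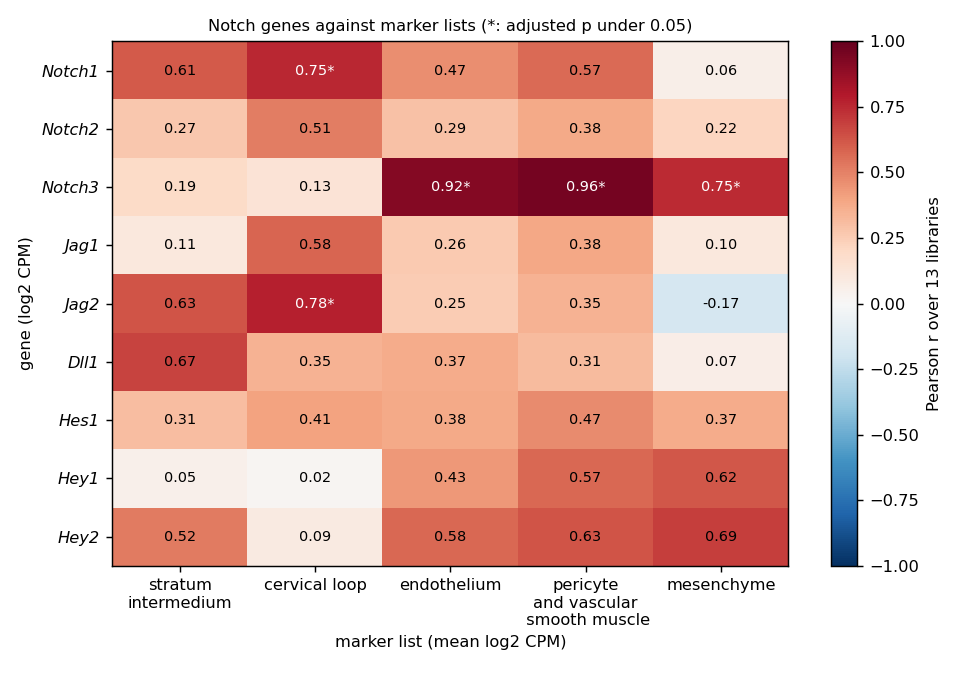
Pearson's r over 13 libraries between the log2 CPM of each gene (rows) and the mean log2 CPM of each marker list (columns). Stars mark the 5 of 45 relations with a permutation p under 0.05 after Benjamini-Hochberg adjustment. They are those of Notch3 with mural, endothelial and mesenchyme markers and those of Notch1 and Jag2 with cervical loop markers. The share of all genes with relations as strong was not counted.

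Notch2 and Jag1, the main receptor and the main ligand, formed the second pair (r = 0.868, permutation adjusted p = 0.00252). It was not past the threshold by rank, with a rho of 0.758 (permutation adjusted p = 0.0675), nor with values centred on genotype and prefix, with an r of 0.705 (permutation adjusted p = 0.0513). Without the 2 libraries farthest from the median of Notch2 r was 0.791, and with 1 library left out it was 0.819 to 0.915. WT 4-3 was highest for both genes. Neither gene had a relation to any of the 5 marker lists past the threshold.

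None of the targets formed a pair with a receptor or a ligand past the threshold. The highest r between a target and a receptor or ligand was that of Hes1 with Notch2 (r = 0.724, permutation adjusted p = 0.0871), which was 0.254 without the 2 libraries farthest from the median of Notch2. After centring on genotype and prefix, Hey1 varied inversely with Notch2 (r = -0.810, rho = -0.786, permutation adjusted p = 0.0126 and 0.0365) and Hey2 inversely with Jag1 (r = -0.773, rho = -0.758, permutation adjusted p = 0.0245 and 0.0461). Before centring these r were -0.181 and -0.0388. The centred r of the pairs were not computed again with any library left out, and their p do not deduct the fitted terms. The pairs and their centred values were examined after the levels had been seen, and within a prefix there are 4 or 5 libraries, too few for a correlation of its own.

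**Figure D5:**
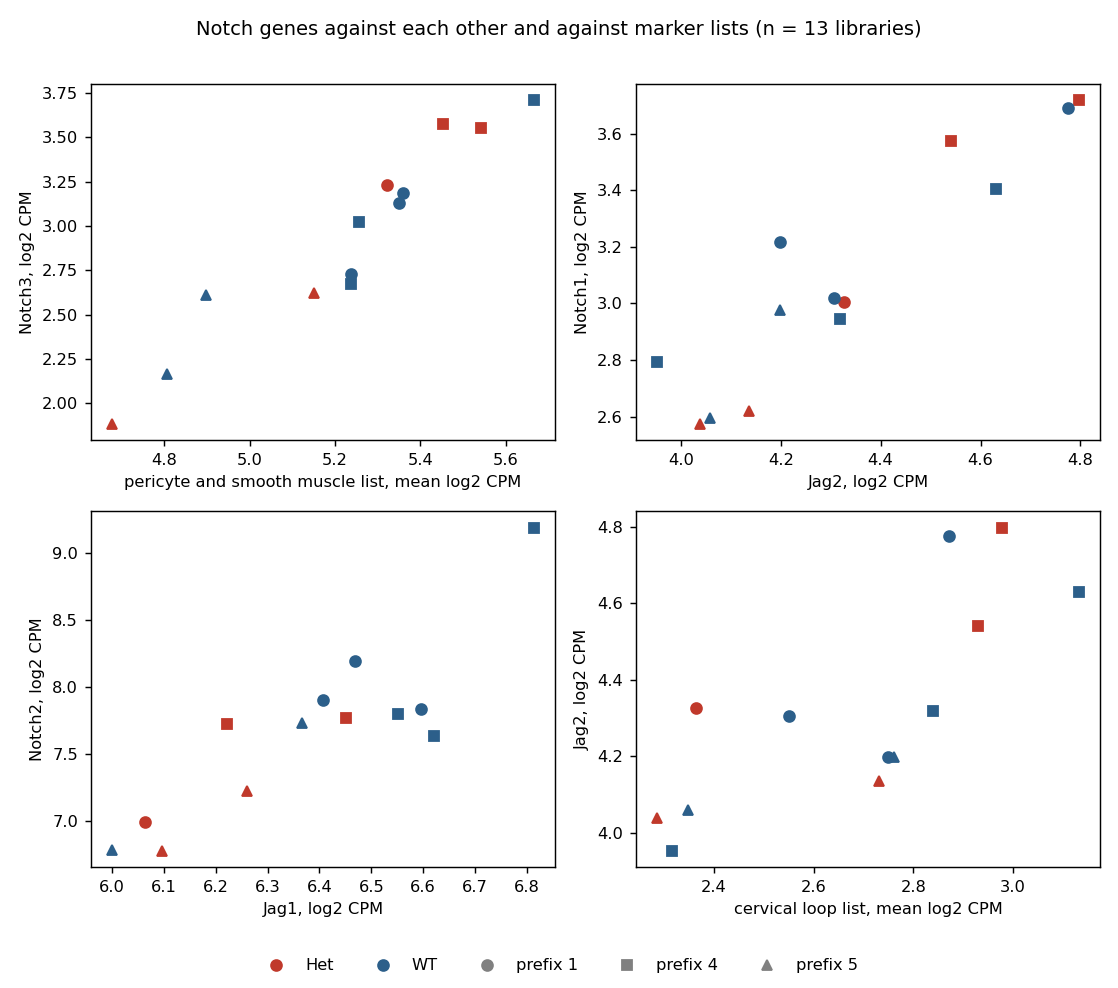
Each point is 1 of 13 libraries, coloured by genotype, with shape by prefix, and both axes are log2 CPM (means of the list for the marker lists). Notch3 follows the mural list (r = 0.956), Notch1 follows Jag2 (r = 0.924), Notch2 follows Jag1 (r = 0.868) and Jag2 follows the cervical loop list (r = 0.779). Most Het libraries lie in the lower left of the Notch2 panel.

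Prefix itself went with the level of 1 of the 9 genes. In an edgeR test over the 3 prefixes with genotype as a term, added after the data had been seen, Notch3 passed the threshold (adjusted p = 0.0256), as did 6.08% of all genes. Notch3 averaged 3.07 log2 CPM in prefix 1, 3.31 in prefix 4 and 2.32 in prefix 5. The 4 libraries of prefix 5 lay between 1.88 and 2.62 log2 CPM, narrowly below the 9 others, which began at 2.67. How many of all genes tested had prefix 5 libraries apart from the others was not counted. Some markers of vessel and mesenchyme cells went with the prefix too, as did some of other lists. In the same edgeR test 1 of 7 mural markers passed (Myh11, adjusted p = 0.0232), with Pdgfrb at 0.0526 and the other 5 between 0.0757 and 0.980. Of the 8 endothelial markers 3 passed (Cldn5, Tie1 and Kdr, edgeR adjusted p = 0.0129, 0.0130 and 0.0159) and of the 6 mesenchyme markers 2 (Col1a1 and Col1a2, 0.00752 and 0.0117). These 6 were lower in prefix 5 than in prefixes 1 and 4, like Notch3, and their part in its level was not tested. Emcn, Tek, Lum and Dcn of the same lists, not past the threshold, were higher in prefix 5 than in prefixes 1 and 4. Over prefix 1 their log2 fold changes were 0.29, 0.07, 0.25 and 0.42. Nectin1 and Dsp of the stratum intermedium list and Igfbp5 of the cervical loop list passed as well, also lower in prefix 5 (edgeR adjusted p = 0.00903, 0.0177 and 0.000244). Prefix 5 had the lowest mean of the 3 for each of the 9 genes, and edgeR adjusted p for the other 8 lay between 0.114 and 0.501. The share of all genes tested with their lowest mean in prefix 5 was not counted, so this is not shown to be particular to the Notch genes.

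By pattern over the 13 libraries, the genes most like each Notch gene were mostly ones without a known place in the pathway. Likeness was Pearson's r of log2 CPM over the 13897 genes, and since the highest were picked it carries no test. For Notch3 they were Pdgfrb, Dvl2 and Llgl1 (r of 0.956, 0.945 and 0.939). For Notch1 they were Prpf40b, Lama5 and Fndc1 (0.901, 0.893 and 0.891), and for Jag2 Ppp2r5d, Klf4 and Rnd2 (0.902, 0.889 and 0.882). For Notch2 they were Dnmt3a, Sco1 and Lsm14b (0.916, 0.915 and 0.898), with 1 gene of the Gm or Rik form passed over, and for Jag1 Gatad2b, Spats2 and Pex11g (0.962, 0.949 and 0.947).

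The targets had partners of their own. For Hes1 they were Grhpr, Lrfn4 and Lztr1 (r of 0.928, 0.923 and 0.917), for Hey1 Trak2, Acvr1 and Helz2 (0.869, 0.845 and 0.832) and for Hey2 Fut4, Shmt2 and Ust (0.873, 0.840 and 0.834). For the ligand Dll1 they were Tshz2, Alkbh7 and Cers4 (0.890, 0.840 and 0.827). No gene was named for more than 1 of the 9.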

How the data were processed

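Per the labels' protocols, total RNA of enamel organs was made into unstranded libraries and read as single ends. STAR 2.5.2a and GRCm38 are named in the submitters' processing notes, while no source used here names the counting tool or the annotation. Deposited by the authors were raw counts (48733 features, of which 24 are spike-in or transgene sequences, left out here), a filtered count table and a normalized signal (TMM-scaled CPM, as the authors named the table). The filtered table served as an alternative filter and the signal, which equals the counts times 1 constant per library, for no test. Columns carry genotype but no replicate number.

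Genes were filtered with filterByExpr (count minimum 10) and tested with edgeR 4.0.16 in R 4.3.3 (TMM, glmQLFit robust, glmQLFTest, adjusted p threshold 0.05). SE came from the F statistic. The edgeR p-values set a difference between groups against the spread between these libraries, which were taken as independent. CPM use TMM-adjusted library sizes, and log2 CPM a prior count of 2. Exon lengths and overlaps came from GENCODE M21 on GRCm38. In pairs of libraries the lowest chi-square was 11.4 per gene over 78 pairs, so none was counted as a repeat. Correlations used 100000 two-sided permutations. Centred values are residuals of a fit on genotype and prefix, whose fitted terms the permutation of residuals does not deduct.

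The genes and lists were chosen with earlier results of these data known. The genes named are the 10 Notch genes and, in each role of the 54 further genes, the 2 of smallest p. Also named are the 3 genes most alike each Notch gene (the 10 themselves and Gm and Rik symbols excepted). Any other marker was named after its value was seen. In data simulated for Het against WT, the test on 16017 genes recovered 29.2% of 65 genes changed 1.5-fold, 76.9% of 65 changed 2-fold and 92.2% of 64 changed 4-fold. Alternatives tried were upper-quartile or RLE scaling, changed filters, DESeq2 1.42.0, limma-voom (limma 3.58.1) with sample weights, prefix as a term, and leaving out libraries or prefixes.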

Additional observations from a re-analysis of the deposited data

How the results depend on the processing

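No Notch gene was called between Het and WT under any of the 24 alternatives (23 for Dll1), and 0 of the 49 further Notch genes were. The count over all genes, 14 with edgeR, was 27 unfiltered, 25 where 5 libraries had to reach 1 CPM, 74 with DESeq2, 25 with limma-voom and sample weights, 30 with the prefix as a term, 0 without prefix 1 (731 at an unadjusted p under 0.05), 1 without prefix 4, 2 without prefix 5, and 6 to 22 with 1 library left out. Notch2, Jag1 and Dll1 kept their sign in every alternative run, but Dll1 ranged from 0.09 (without Het 1-2) to 0.53 (without prefix 5). Without prefix 4 the log2 fold change was -0.39 for Notch1, -0.13 for Notch3, -0.15 for Jag2 and -0.38 for Hey2. Without prefix 5 it was 0.036 for Hes1 and 0.18 for Hey1, and with limma-voom -0.041 for Notch1. With 1 library left out, it ranged from 0.09 to 0.50 for Dll1, -0.26 to -0.0064 for Hes1, -0.11 to 0.19 for Notch1, -0.018 to 0.33 for Notch3, -0.054 to 0.15 for Jag2, -0.15 to 0.26 for Hey2 and -0.13 to 0.085 for Hey1. The cause was not tested. The 5 relations to marker lists became 3 with a prior count of 0.5 and 4 after centring. They were 2 to 10 with 1 library left out, being 2 without Het 4-2, Het 5-5 or WT 4-1, 3 without WT 1-3 or WT 5-3, 9 without WT 4-4 and 10 without WT 5-1. The 2 pairs became 3 after centring, and 2 to 4 with 1 library left out, being 4 without WT 1-3 or WT 5-1. The order of levels held under all its alternatives. Low counts limit Hes5, Dll1 and Hes1 most. No paired analysis was possible because the columns carry no replicate number of the labels. The column prefix is not such a number, and the fit with it as a term is the one given above.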
